A study of Mus musculus with 17 samples.

Results

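The genes described here are transcription factors of the eye and of the retinal pigment epithelium (RPE), the pigmented layer behind the photoreceptors: Mitf, Otx2, Otx1, Pax6, Sox9, Lhx2, Tfec, Rax and Six6. They were taken by symbol from a table of 22253 genes, and all 9 had a row. Of these, 5 had more than 3 counts in at least 9 of the 17 libraries, and each of the 5 passed that count in every library. The libraries came from RPE cells of Serpine3 GFP/+ mice of 2 months, on the C57BL6/J background, in which GFP with a transcription terminator sits in 1 allele of Serpine3, behind its start codon, so that every group carried the same allele. GFP+-RPE cells of the periphery (GFP+, 6 libraries) were compared with GFP-negative RPE of the periphery (ctrl periphery, 5 libraries) and with GFP-negative RPE of the center (ctrl center, 6 libraries). Each library was a pool of hand-picked cells of 1 mouse, 10 to 15 by the labels and a lower range by the study's methods, except that mouse 1 stood for 2 pooled animals, and 5 of the 7 mice gave a library to all 3 groups. The GFP+ cells were chosen by the Serpine3 reporter and the control cells by their lack of GFP, so Serpine3 itself is no finding between the groups.

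The RPE and the neural retina arise from the same optic neuroepithelium. Rax, Six6, Six3, Lhx2 and Pax6 belong to the group of eye-field factors that first mark this tissue, and Otx2 with Mitf turns its outer layer towards the pigmented fate. Mitf is a basic helix-loop-helix leucine zipper protein of the MiT family, with Tfec, Tfe3 and Tfeb, and binds M-box and E-box elements of pigment genes such as Tyr, Tyrp1 and Dct. Otx2 is a homeodomain factor that acts with Mitf on those genes, Otx1 is its paralogue, and Sox9 acts with Otx2 on genes of the visual cycle. Lhx2 is a LIM homeodomain factor needed for the optic vesicle.

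In the GENCODE M21 annotation of GRCm38, Mitf lies on chr6:97807052-98021349 (plus strand), Otx2 on chr14:48657677-48673819 (minus), Pax6 on chr2:105668900-105697364 (plus), Sox9 on chr11:112782224-112787760 (plus) and Lhx2 on chr2:38339281-38369733 (plus). Otx1 lies on chr11:21994764-22002897 (minus), Tfec on chr6:16833373-16898441 (minus), and Six6 on chr12:72939892-72944899 (plus). All 9 are protein-coding genes and the counts were summed over the gene. Transcripts on the other strand overlap Mitf, Otx2, Pax6, Lhx2, Rax and Six6, and none of the antisense or neighbouring genes looked up had a row, so their reads could not be set apart.

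The promoters of the 3 pigment genes with the largest edgeR change between GFP+ and ctrl center are shown because they were searched for the letters these factors are known to bind. They are 300-base windows of RefSeq on GRCm38.p6, from 250 bases before the start to 50 after, 5′ to 3′ on the gene's strand. Capitals mark exact matches on either strand to the M-box core TCATGTG, to the E-box palindrome CACGTG, or to the OTX core TAATCC.
Tyrp1, chr4:80833963-80834262, plus strand: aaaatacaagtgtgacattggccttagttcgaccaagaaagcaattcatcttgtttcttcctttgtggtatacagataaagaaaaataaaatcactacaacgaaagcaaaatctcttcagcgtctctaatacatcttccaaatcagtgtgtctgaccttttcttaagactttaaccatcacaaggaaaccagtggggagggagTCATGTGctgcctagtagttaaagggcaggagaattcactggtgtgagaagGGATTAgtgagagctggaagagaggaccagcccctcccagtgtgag
Trpm1, chr7:64153585-64153884, plus strand: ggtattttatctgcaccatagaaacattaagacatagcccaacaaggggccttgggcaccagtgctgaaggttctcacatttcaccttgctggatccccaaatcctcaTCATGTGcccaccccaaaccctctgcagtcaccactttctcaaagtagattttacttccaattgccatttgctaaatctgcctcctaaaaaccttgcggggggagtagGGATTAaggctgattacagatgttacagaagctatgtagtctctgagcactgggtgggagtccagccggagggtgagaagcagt
Gpnmb, chr6:49036268-49036567, plus strand: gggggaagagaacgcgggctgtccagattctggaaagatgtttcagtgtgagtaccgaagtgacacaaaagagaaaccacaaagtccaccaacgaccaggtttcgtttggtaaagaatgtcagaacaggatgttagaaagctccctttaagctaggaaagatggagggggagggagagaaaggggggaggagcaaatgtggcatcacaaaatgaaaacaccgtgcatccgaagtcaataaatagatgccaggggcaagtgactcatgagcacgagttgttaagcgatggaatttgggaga
Trpm1 had a second window, which held the palindrome only and is not printed. The windows printed for Tyrp1 and Trpm1 each held an M-box core and an OTX core, and the Gpnmb window held none of the 3 motifs. Of 32851 windows searched, 3.77% held an M-box core, 7.15% the palindrome and 7.06% the OTX core. Among the 11 pigment genes with a window, 6 held an M-box core in a window. Of the factors themselves, 6 had windows; none of these held an M-box core or the palindrome, and 1 of the windows of Mitf and 1 of Otx2 held an OTX core. These matches describe letters and not binding.

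The libraries held 9896118 to 22467079 counts. Mitochondrial genes took 0.71% to 47.3% of them, with the highest shares in ctrl center, and the 2 libraries with the fewest genes of at least 10 counts were ctrl center of mice 5 (5392 genes) and 7 (6430 genes). Serpine3, which marks the cells picked as GFP+, had 107 to 576 counts in the 6 GFP+ libraries, 5 in ctrl periphery of mouse 1 and 0 in the other 10 libraries. Of 10 RPE markers, 9 were present, with summed levels of 62155 to 126844 CPM, the counts of a gene scaled to a common library size, over all libraries, while Best1, which encodes the RPE chloride channel bestrophin, had at most 2 counts in any library. Levels are CPM scaled by the trimmed mean of M values (TMM) unless stated, and p-values measure the spread between these libraries. In pools of cells, fewer cells of a type and less RNA per cell cannot be told apart.

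Otx2 was the most abundant of the factors. It ranked 155th of 22253 genes by mean CPM and had 2753 to 22291 counts per library. In GFP+ its CPM was 512 at the lowest, 644 at the median and 865 at the highest library, with a mean of 663 ± 143 (SD, n = 6). In ctrl periphery the libraries of mice 1, 2, 4, 5 and 7 had 558, 655, 737, 507 and 551 CPM. In ctrl center the lowest, median and highest were 469, 528 and 746 CPM. The ranges of the groups overlapped, and the highest library was only 1.85 times the lowest. On the log2(CPM + 1) scale its SD over the 17 libraries was 0.27, against a median SD of 1.45 over the 7037 genes with a mean of at least 10 CPM. Nearly all of those genes were less abundant than Otx2, and its SD was not compared with a set of genes of like level. Of listed genes with means of 541 to 663 CPM, Glul had an SD of 0.27, Stra6 0.43 and Dct 0.93.

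Sox9 was next, with 1951 to 8482 counts per library. In GFP+ it had 149 CPM at the lowest, 268 at the median and 416 at the highest, and in ctrl center 245, 302 and 361 CPM. In ctrl periphery the libraries of mice 1, 2, 4, 5 and 7 had 188, 440, 329, 397 and 213 CPM. The spread of ctrl center was the smallest, at 46.3 CPM (SD, n = 6), and lay within the ranges of the other groups.

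Lhx2 had 288 to 3178 counts per library. In GFP+ its CPM was 54.8 at the lowest, 90.6 at the median and 152 at the highest. In ctrl periphery mice 1, 2, 4, 5 and 7 had 50.1, 50.9, 86.4, 76.1 and 84.7 CPM, and in ctrl center the lowest, median and highest were 53.2, 88.9 and 133 CPM. In the 5 mice that gave both, GFP+ was higher than ctrl periphery in 5 of 5. Within mice 1 to 3, the lowest GFP+ library (54.8 CPM) lay above the highest ctrl periphery library (50.9 CPM), and within mice 4 to 7 the lowest GFP+ library (87.6 CPM) lay above the highest ctrl periphery library (86.4 CPM), while the pooled ranges overlapped. Of all genes tested in this comparison, 4.82% were higher in GFP+ in every one of the 5 mice, and 1.01% lay wholly higher within both sets of mice. Lhx2 was looked at this way after its values had been seen.

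Mitf had 44 to 2134 counts per library. In GFP+ the lowest, median and highest were 32.4, 81.3 and 93.6 CPM. In ctrl periphery mice 1, 2, 4, 5 and 7 had 97.2, 42.7, 102, 86.8 and 25.3 CPM. In ctrl center the range was widest, from 8.13 CPM in mouse 5 to 154 CPM in mouse 4, with a median of 79.1. The highest library was 18.9 times the lowest, and the library at 8.13 CPM was the one with the fewest genes and the largest mitochondrial share.

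Pax6, a paired and homeodomain factor that is also kept in amacrine cells of the neural retina, was the least abundant of the detected factors, with 17 to 355 counts per library. In GFP+ the lowest, median and highest were 0.807, 7.84 and 15.3 CPM. In ctrl periphery mice 1, 2, 4, 5 and 7 had 5.18, 5.08, 17.1, 10.1 and 4.55 CPM. In ctrl center they ran from 2.86 CPM in mouse 2 over a median of 6.73 to 35.3 CPM in mouse 5. The value of mouse 5 came from 191 counts in the library with the lowest TMM factor, 0.547, which raises the CPM of all its genes. GFP+ of mouse 3 had 345 counts of Pax6 and ctrl periphery of mouse 4 had 355. The next values are for ctrl center of mouse 5. That library also had the highest summed CPM of 14 markers of amacrine, bipolar, horizontal and ganglion cells, at 183 CPM against 28.4 to 50.8 CPM over ctrl periphery. Most of that sum was 1 gene, Tfap2a, at 157 CPM, and 6 of the 14 markers, among them Gad1 and Grm6, were at 3 counts or fewer in every library. The part of these markers in the Pax6 level was not tested.

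**Figure D1:**
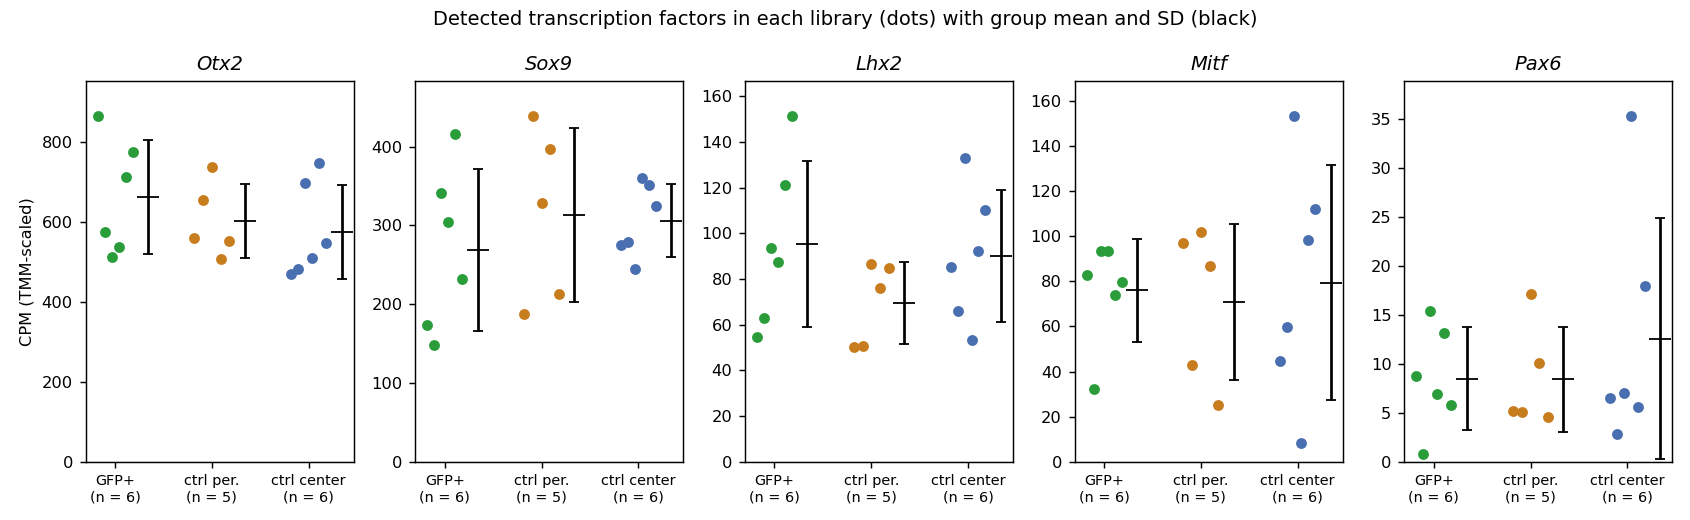
CPM (y axis) of Otx2, Sox9, Lhx2, Mitf and Pax6 in each library, by group (x axis), with the group mean and SD in black; axes differ between panels. The groups overlap for each of the 5 genes, and ctrl center of mouse 5 is the lowest library for Mitf (8.13 CPM) and the highest for Pax6 (35.3 CPM).

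Levels were compared between genes per kilobase of the mean coding transcript. Otx2 stood first at 299 ± 58.3 CPM per kb (SD, n = 17) and exceeded Sox9 (71.4 ± 20.9) in 17 of 17 libraries. Sox9 exceeded Lhx2 (37.9 ± 13.1) in 16 of 17. Lhx2 exceeded Mitf (31.8 ± 15.3) in only 10 of 17, so these neighbours did not differ beyond their spread, and Mitf exceeded Pax6 (3.34 ± 2.77) in 16 of 17. The order was the same over the union of all exons, where Otx2 had 145 and Pax6 0.845 CPM per kb.

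The other factors were at or near 0. Otx1 had 1 count in all, in GFP+ of mouse 5. Six6 had 1 count in GFP+ of mouse 1 and 1 in ctrl periphery of mouse 4, and Tfec had 2 counts in GFP+ of mouse 7 and 1 in ctrl center of mouse 1. Rax had 39 counts in ctrl periphery of mouse 1 and 13 in ctrl periphery of mouse 4, or 2.17 and 0.626 CPM, and 0 in the other 15 libraries. The limit that a library at 0 sets, taken as 3 counts, was 0.116 to 0.554 CPM and covers counting error only.

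In each comparison 5 of the 9 factors passed the low-count filter and 0 were called by edgeR's quasi-likelihood test, with none at an unadjusted p under 0.05, against 5.8% of all genes tested for GFP+ against ctrl center, 5.58% for GFP+ against ctrl periphery and 2.7% for ctrl periphery against ctrl center. A call needed a log2 change of more than 1 in either direction and an adjusted p (Benjamini-Hochberg) below 0.01. Of all genes tested, 0.0431% were called for GFP+ against ctrl center (4 of 9286), 0.0396% for GFP+ against ctrl periphery (4 of 10102) and 0% for ctrl periphery against ctrl center (0 of 9535, with 257 at an unadjusted p under 0.05 and 29, or 0.259%, called by DESeq2). With the mouse as a block, 60 genes were called for GFP+ against ctrl center and 0 for GFP+ against ctrl periphery, and again none of the factors. DESeq2 called 196 genes (1.54%) and 67 (0.558%) in these 2 comparisons, none of them a factor.

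For GFP+ against ctrl center, the log2 fold change of Otx2 was 0.14 ± 0.21 (SE), with a 95% interval of -0.30 to 0.58. That interval lies within a log2 change of 1 in either direction. Sox9 differed by -0.27 ± 0.27 (-0.85 to 0.31) and Lhx2 by 0.02 ± 0.35 (-0.71 to 0.76), which also lie inside it. Mitf differed by -0.09 ± 0.51 (-1.15 to 0.98), and Pax6 by -0.75 ± 1.08 (-3.03 to 1.54), the widest interval of the 5. Without ctrl center of mice 5 and 7, a choice made after the data were seen, Pax6 differed by 0.59, so its direction turned. On the log2(CPM + 1) scale the mean difference of Mitf was 0.30 (exact p = 0.732), below the median of 0.49 over all genes tested.

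For GFP+ against ctrl periphery, Lhx2 had the largest difference, 0.47 ± 0.30 on the log2 scale (-0.17 to 1.11), with an unadjusted p of 0.139 and an adjusted p of 1.00 by edgeR. The exact two-sided permutation test of its log2(CPM + 1) gave p = 0.21, and the exact sign-flip test over the 5 shared mice gave 0.0625, the smallest p that 5 pairs allow. Otx2 differed by 0.16 ± 0.18, Sox9 by -0.20 ± 0.29, Mitf by 0.11 ± 0.38 and Pax6 by 0.02 ± 0.98. On the log2(CPM + 1) scale Pax6 was lower in GFP+ by a mean of -0.11 (exact p = 0.866). Within mice, Mitf was lower in GFP+ than in ctrl periphery in mice 1, 2, 4 and 5. It was higher in GFP+ in mouse 7, at 79.9 against 25.3 CPM. A term was then added for mice 1 to 3 against mice 4 to 7, whose animal numbers form separate runs. With it the Lhx2 difference was 0.53 ± 0.25, at an adjusted p of 0.92 by edgeR. Lhx2 had been looked at over these same sets of mice after its values were seen.

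For ctrl periphery against ctrl center, Otx2 differed by 0.00 ± 0.22 and Sox9 by -0.04 ± 0.29. Lhx2 differed by -0.42 ± 0.40, Mitf by -0.19 ± 0.60 and Pax6 by -0.71 ± 1.20, which was 0.60 without ctrl center of mice 5 and 7. All 3 comparisons share groups, so their values are not independent.

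**Figure D2:**
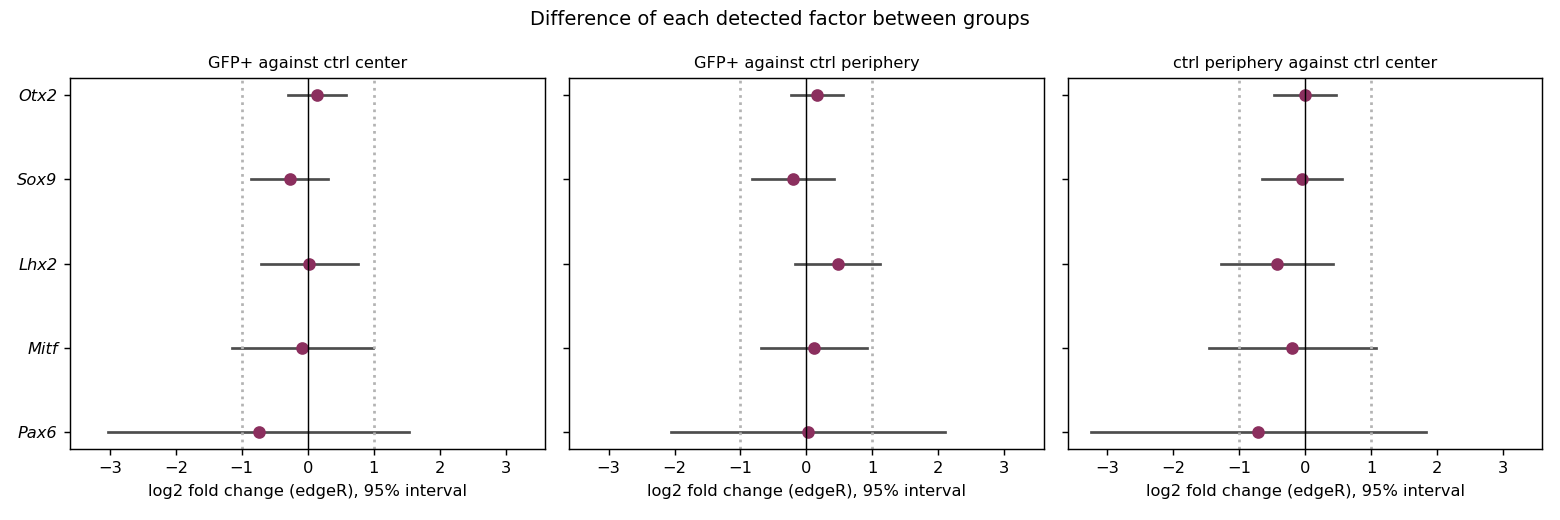
Log2 fold change (x axis) with its 95% interval from edgeR for the 5 detected factors (y axis) in the 3 comparisons; dotted lines mark a log2 change of 1 in either direction. Each interval includes 0, and those of Pax6 are the widest, from -3.03 to 1.54 for GFP+ against ctrl center.

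In the exact two-sided permutation tests, none of the 5 detected factors had p under 0.05 in any of the 3 comparisons, which are 15 tests. The other 4 factors had counts in at most 2 libraries each, too few to read their 12 tests. Among all genes tested, 12.9% had such a p for GFP+ against ctrl center, 9.57% for GFP+ against ctrl periphery and 6.37% for ctrl periphery against ctrl center. The smallest p these designs allow is 0.00216. With plain library totals in place of TMM, Otx2 was higher in GFP+ than in ctrl center by 0.69 on the log2(CPM + 1) scale (exact p = 0.00649) and Lhx2 higher in GFP+ than in ctrl periphery by 0.58 (exact p = 0.0476). With these totals the median difference of all genes tested was 0.84 and 0.19 in the same comparisons, so that Otx2 lay below and Lhx2 above the median gene, and 20.1% and 10.6% of all genes had an exact p under 0.05. The median shift between the scalings was -0.35 and -0.16 (TMM less plain totals).

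**Figure D3:**
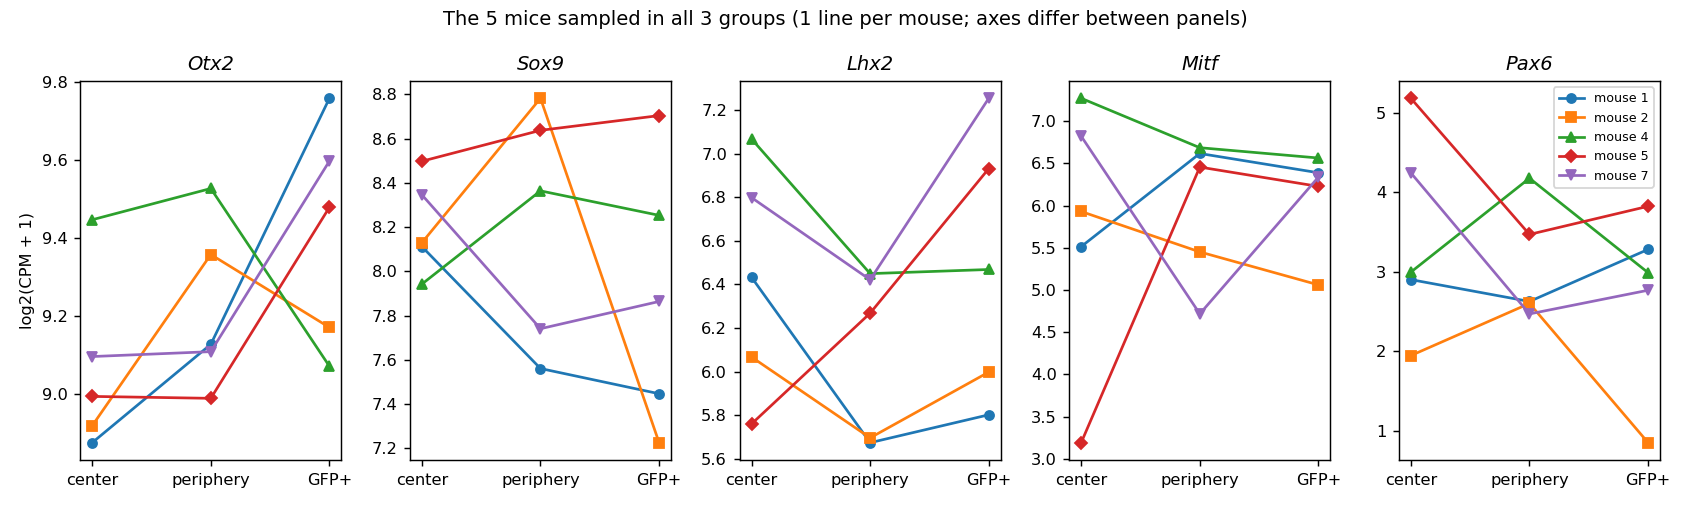
Log2(CPM + 1) (y axis) of the 5 detected factors in ctrl center, ctrl periphery and GFP+ (x axis), with 1 line per mouse for the 5 mice that gave all 3 libraries. Lhx2 is higher in GFP+ than in ctrl periphery in 5 of 5 mice, and no other factor is higher there in more than 3 of 5.

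The relatives of the factors were looked up from lists. Of the MiT family, Tfe3 had more than 3 counts in 10 of 17 libraries and reached 15.7 CPM, Tfeb had more than 3 counts in 14 and reached 14.7 CPM, and neither was called in any comparison. Crx, the photoreceptor member of the OTX family, had at most 3 counts in every library. Sox10, a SOX group E factor better known from neural crest and melanocytes, had 35.2 to 116 CPM in the 17 libraries, and Sox8 at most 1.85 CPM. Of 17 further eye-field and progenitor genes, 8 passed the filter for GFP+ against ctrl center, with 3 higher, 5 lower and none called. Six3 was present in every library, from 37.1 to 162 CPM, whereas Sox2 and Zic2 had 0 counts in all 17. For the same comparison, 4 of 18 patterning genes passed (1 higher, 3 lower) and 10 of 13 cofactors (5 higher, 5 lower), with none called. For ctrl periphery against ctrl center, DESeq2 called 1 patterning gene, Tbx2, a T-box factor of the dorsal eye. Tbx2 had 0.866 to 5.75 CPM in ctrl periphery and 0 to 0.275 CPM in ctrl center. It had at most 5 counts in any ctrl center library and passed the filter through ctrl periphery. Its log2 difference was 5.65 ± 1.40 (edgeR adjusted p = 1.00, DESeq2 adjusted p = 0.00374). Id2, an inhibitor of helix-loop-helix factors, was lower in GFP+ than in ctrl periphery by 1.03 ± 0.28 on the log2 scale (edgeR quasi-likelihood adjusted p = 0.44) and was not called.

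**Figure D4:**
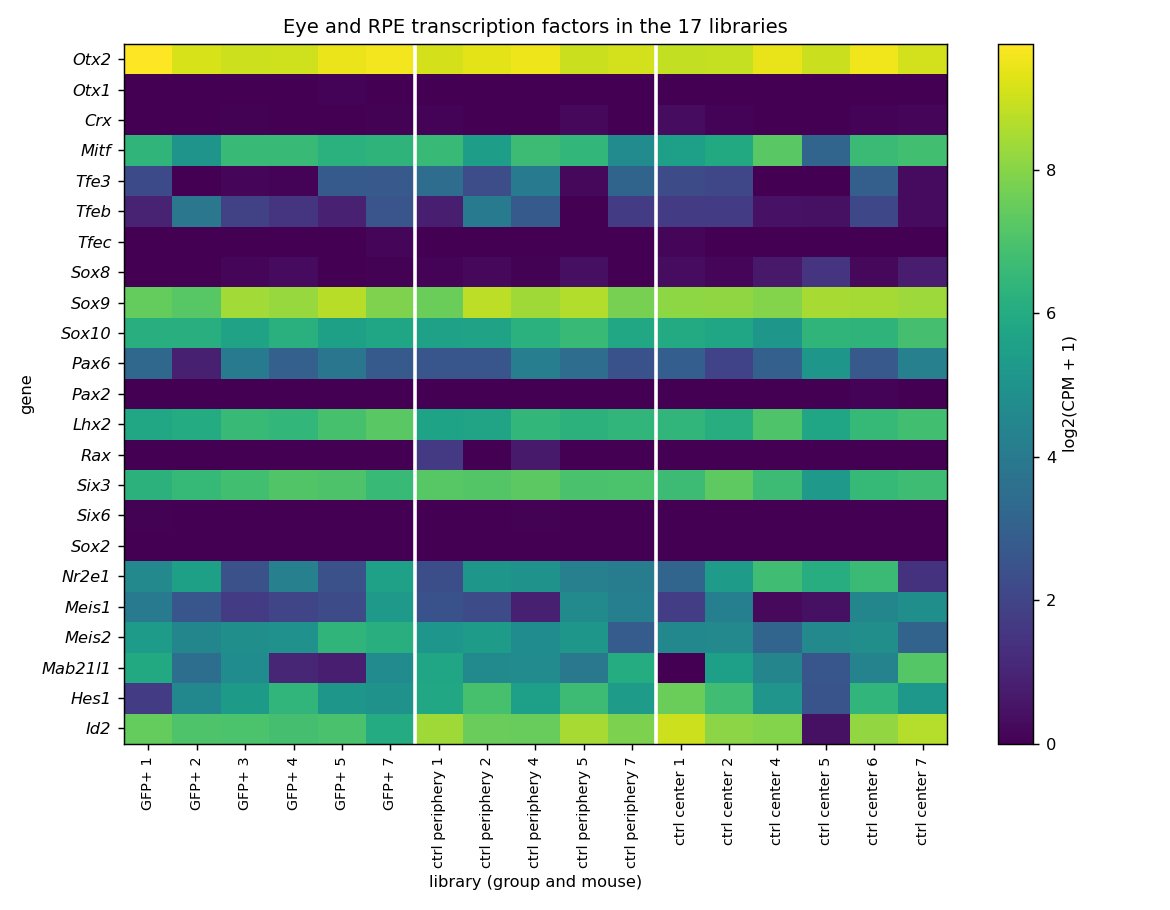
Log2(CPM + 1) (colour) of the 9 factors and related genes (rows) in the 17 libraries (columns, by group and mouse, separated by white lines). Otx2, Sox9, Sox10, Six3, Lhx2 and Mitf are present across the groups, and Otx1, Tfec, Six6, Crx and Sox2 are at or near 0.

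Pigment genes, listed here as targets of Mitf, Otx2 or both, were set beside the factors. Of the 16 on the list, 13 passed the filter for GFP+ against ctrl center, with 10 higher and 3 lower, a median log2 fold change of 0.84 against 0.00 over all genes tested, and none called by edgeR. DESeq2 called 4 of them, all higher in GFP+. Tyrp1, an enzyme of melanin synthesis, had 72.3 to 523 CPM in GFP+ and 0 to 9.35 CPM in ctrl center, and differed by 6.33 ± 1.22 on the log2 scale (edgeR adjusted p = 0.0533, DESeq2 adjusted p = 0.000558). Trpm1, a cation channel gene whose intron holds a microRNA, had 7.32 to 47.2 CPM against 0 to 0.554 CPM (edgeR adjusted p = 0.0733, DESeq2 adjusted p = 4.75e-10). Gpnmb, a melanosomal glycoprotein, had 132 to 786 CPM against 0.111 to 39.1 CPM (edgeR adjusted p = 0.0729, DESeq2 adjusted p = 0.0021). These 3 genes were picked after their values had been seen, for the size of this difference, so their separation restates the choice. Their GFP+ and ctrl center libraries did not overlap, and 0.862% of all genes tested lay wholly higher in GFP+. Trpm1 had at most 4 counts in any ctrl center library and passed the filter through GFP+. Tyrp1 had 0 counts in ctrl center of mice 1, 6 and 7 and 5 in mouse 5, and Gpnmb had 2 in mouse 5 and 1 in mouse 7. Both also needed their GFP+ libraries to pass. The list median of 0.84 includes genes that passed in this way. Tyr, the first enzyme of melanin synthesis, had 230 to 468 CPM in GFP+ and 181 to 371 CPM in ctrl center, and overlapped. Slc45a2 had 14.2 to 73.8 CPM in GFP+ and 0 to 9.42 CPM in ctrl center, without overlap. Slc45a2 had 0 counts in ctrl center of mice 4, 6 and 7 and also passed the filter through GFP+. Pmel had 0 to 74.3 CPM in GFP+, with 0 in mouse 5, and at most 0.0750 CPM in ctrl center. It did not pass the filter, so edgeR did not test it here. Mc1r went the other way, with an edgeR log2 fold change of -2.56, and -2.94 to -1.62 without 1 library in turn. It had 0.931 to 7.74 CPM in GFP+ and 4.40 to 58.6 CPM in ctrl center, highest in mouse 5, and overlapped. Mitf itself differed by -0.09 ± 0.51 between the same libraries. The mitochondrial share was 0.71% to 17.2% in GFP+ and 13.7% to 47.3% in ctrl center, and the summed level of 6 melanocyte markers was 56.0 to 168 CPM and 64.1 to 241 CPM, with Erbb3 at 3 counts or fewer throughout. Their part in these differences was not tested.

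Against ctrl periphery, 15 of the 16 pigment genes passed, with 11 higher in GFP+, 4 lower and none called by edgeR or DESeq2. Tyrp1 had 19.2, 127, 30.5, 11.3 and 2.67 CPM in ctrl periphery of mice 1, 2, 4, 5 and 7, so that 1 library reached into the GFP+ range. Its log2 difference was 2.58 ± 0.74 (edgeR adjusted p = 0.556).

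**Figure D5:**
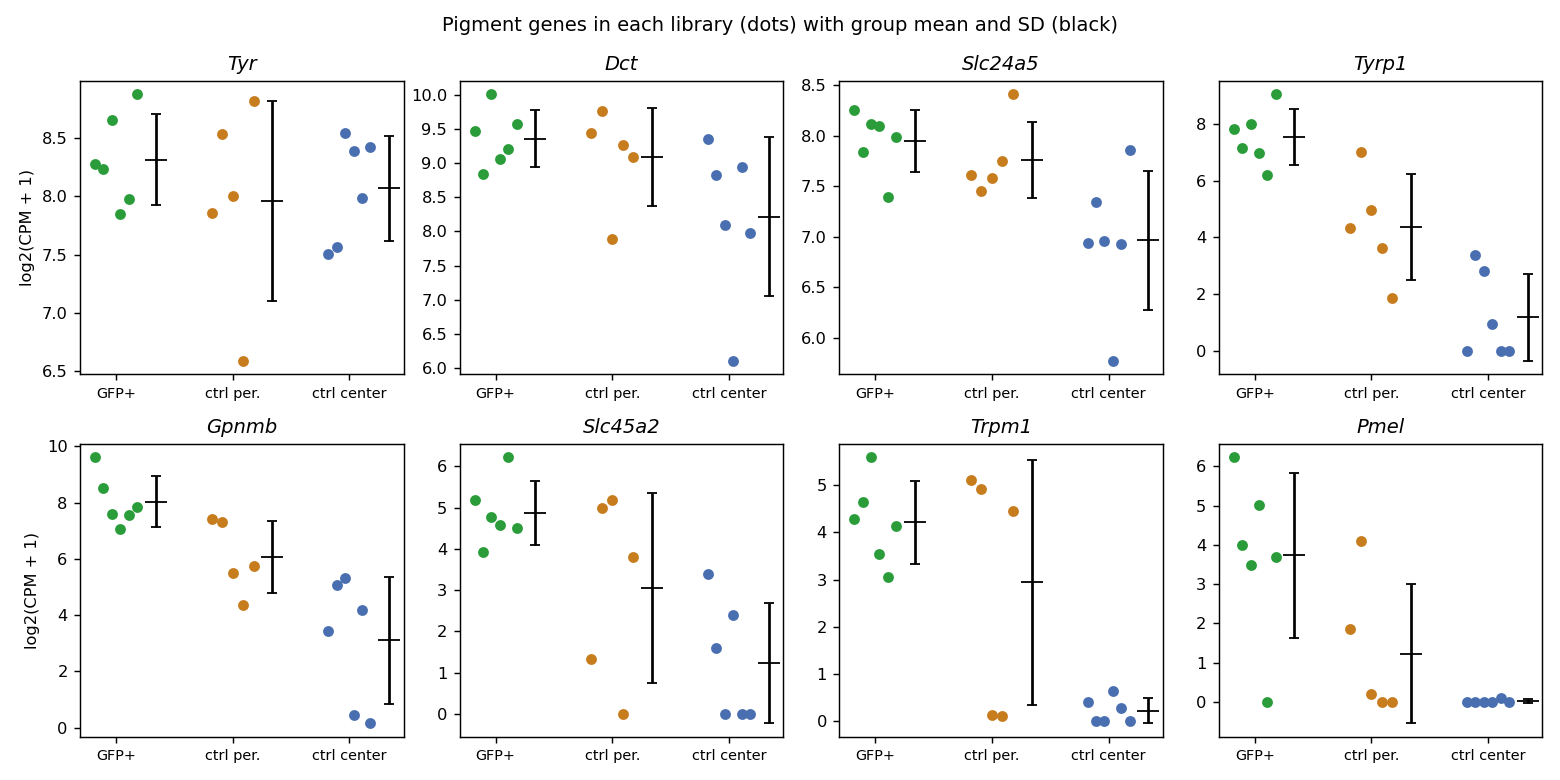
Log2(CPM + 1) (y axis) of 8 pigment genes in each library by group (x axis), with the group mean and SD in black; axes differ between panels. Tyrp1, Gpnmb, Trpm1 and Slc45a2 of GFP+ lie above every ctrl center library but overlap ctrl periphery, and Tyr overlaps between the groups.

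Of 14 genes of RPE function listed here as targets of any of these factors, 13 passed the filter for GFP+ against ctrl center. Of these, 7 were higher, 6 lower and none called by edgeR or DESeq2. Lrat, an enzyme of the visual cycle, was lower in GFP+ by 0.79 ± 0.23 on the log2 scale (edgeR adjusted p = 0.17) and Ctsd, a lysosomal protease, differed by 1.13 ± 0.35 (edgeR adjusted p = 0.26).

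The 5 detected factors were compared with each other over the 17 libraries, which share mice and groups, in 10 pairs. No pair passed a Benjamini-Hochberg adjusted p of 0.05 by permutation. The largest r over all 17 was that of Pax6 with Sox9, with Pearson r = 0.58 (permutation p = 0.0139, adjusted p = 0.139) and Spearman rho = 0.46 (permutation p = 0.0688, adjusted p = 0.344), and r was 0.35 without the 2 libraries farthest from the median of Pax6. Mitf with Lhx2 had r = 0.48 (permutation p = 0.0485, adjusted p = 0.242) and rho = 0.48 (permutation p = 0.0507, adjusted p = 0.344), and r was 0.47 without its 2 farthest libraries. Mitf with Otx2 had r = 0.36 (permutation p = 0.152, adjusted p = 0.507) and rho = 0.28 (permutation p = 0.274, adjusted p = 0.549), and r was 0.26 without the farthest 2. Mitf with Pax6 had r = -0.05 (permutation p = 0.855, adjusted p = 0.981) and rho = 0.37 (permutation p = 0.148, adjusted p = 0.494), but r was 0.64 without ctrl periphery of mouse 7 and ctrl center of mouse 5, above that of Pax6 with Sox9 after the same step. The order of the pairs thus rested on single libraries.

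The genes whose pattern over the 17 libraries was most like each factor, by Pearson r of log2(CPM + 1) among genes with a mean of at least 10 CPM, are given as a description. For Mitf they were Rock2 (r = 0.91), Kat6a (0.89) and Med10 (0.87), for Otx2 Bphl (0.79), Ywhae (0.73) and Ephx1 (0.72), and for Pax6 Nmt2 (0.86), Amd2 (0.77) and Cep97 (0.76). For Sox9 they were Rbm25 (0.80), Prpf4b (0.78) and Sod1 (0.77), and for Lhx2 Nat8f1 (0.70), Smim1 (0.69) and Prpf39 (0.67).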

How the data were processed

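Polyadenylated RNA of hand-picked RPE pools was sequenced from libraries of the SMART-Seq mRNA LP kit, which has no molecular identifiers, so intervals cover counting error and library spread only. Per the labels the authors used fastp and Salmon with GRCm38.p6 (versions not given in the sources used here), and the deposited table holds estimated counts per gene as whole numbers, taken here as rounded Salmon estimates. No column of per-sample values was left unused. Groups and mouse numbers come from the labels. The factors and gene lists were chosen with earlier results of these data known.

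Counts were tested with edgeR 4.0.16 (TMM, default low-count filter, quasi-likelihood test, R 4.3.3) over the libraries of the 2 groups compared. The SE is the absolute log2 fold change over the root of F. DESeq2 1.42.0 at its default filtering was the first alternative; filtering set for 0.01 was added after the default's counts were seen. Exact permutation tests and correlations (100000 permutations) used log2(CPM + 1). The named genes are the 9 factors, the 3 genes most like each detected factor and genes of the lists. The same animal number pairs libraries by label; the deviations of same-mouse libraries from their group means correlated at -0.02 to 0.09 over 15 pairs. The highest correlation between any 2 libraries was 0.92, so none was counted as a repeat. The edgeR script was tested on simulated data as a check of its code. Recovery of changed genes was required there only at a spread narrower than that of these data, so it does not bear on genes not called. Symbols were matched to GENCODE M21 for positions and to RefSeq for promoters. A gene of the lists is not reported here.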

Additional observations from a re-analysis of the deposited data

Results flagged for a closer look

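Mitf in GFP+ of mouse 2 was 32.4 CPM, apart from the other 5 GFP+ libraries at 73.9 to 93.6 CPM. Rax in ctrl periphery of mouse 1 was 2.17 CPM (39 counts), apart from the other ctrl periphery libraries at 0 to 0.626 CPM. Both stood apart by the gap to the nearest library over the range of the group, among 16 groups checked. For normally spread values, chance gives about 1 in 20. Rax had 0 counts in ctrl periphery of mice 2, 5 and 7, so that rate does not hold for it. The cause was not tested.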

How the results depend on the processing

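No alternative changed an edgeR call of a factor: of 345 values for 15 results, 302 kept their direction and 43 turned it. Of 459 values of the exact tests, those of the 4 near-absent factors included, 418 kept direction and side of the threshold, 39 turned direction and 2 passed 0.05, so that 1 factor did so in each GFP+ comparison under plain totals. Genes called for GFP+ against ctrl center (4 in the report) numbered 196 with DESeq2, 206 with its filter set for 0.01 (4 pigment genes with either), 60 with the mouse as replicate block, 2 with 10 counts in 5 libraries, 1 with the run term, 8 at an adjusted p under 0.05 with no fold limit and 1 to 3 without 1 library. For GFP+ against ctrl periphery they numbered 67 and 66 with DESeq2, 0 with the replicate block, 0 with all 3 groups in the fit, 1 with the run term and 0 to 5 without 1 library, and for ctrl periphery against ctrl center 29 and 28 with DESeq2. The cause was not tested.

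Log2 fold changes that turned were, for GFP+ against ctrl center, Mitf at 0.00356 with no filter, 0.21 with the replicate block and 0.0337 with the run term, Lhx2 at -0.0247 with the block and Pax6 at 0.59 without ctrl center of mice 5 and 7. For GFP+ against ctrl periphery they were Pax6 at -0.00916 with TMMwsp scaling and -0.41 with the block, and Tbx2 at -0.77 with the block. For ctrl periphery against ctrl center Otx2 was -0.00974 with DESeq2 under either filter, -0.0238 with RLE factors, -0.00395 with TMMwsp, -0.0126 with all 3 groups and -0.0163 without mitochondrial genes, Sox9 was 0.0411 with no filter and 0.12 without the 2 ctrl center libraries, Mitf was 0.0812 and Id2 0.0481 with the block, and Pax6 was 0.60 without the 2 libraries.

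On the log2(CPM + 1) scale, plain totals turned Pax6 to 0.0556 and Sox9 to 0.23 (GFP+ against ctrl center), Pax6 to 0.0240 (GFP+ against ctrl periphery), and Pax6 to 0.0317 and Sox9 to 0.28 (ctrl periphery against ctrl center). Without the 2 ctrl center libraries Mitf was -0.15, Pax6 0.31, Lhx2 -0.0250 and Tfec -0.00724 (GFP+ against ctrl center), and Mitf -0.35, Pax6 0.43 and Sox9 0.0562 (ctrl periphery against ctrl center). Over the 5 mice as pairs Sox9 was 0.0116 (ctrl periphery against ctrl center).

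Leaving out 1 library in turn gave edgeR ranges across 0 for Mitf (-0.32 to 0.18), Pax6 (-0.96 to 0.0131) and Lhx2 (-0.12 to 0.18) in GFP+ against ctrl center, Mitf (-0.11 to 0.26), Pax6 (-0.23 to 0.43) and Trpm1 (-0.0727 to 0.77) in GFP+ against ctrl periphery, and Mitf (-0.38 to 0.0915), Otx2 (-0.0707 to 0.0731), Pax6 (-1.12 to 0.0595), Sox9 (-0.19 to 0.0974), Ctsd (-0.0294 to 0.33) and Id2 (-0.47 to 0.0674) in ctrl periphery against ctrl center. The exact-test differences ranged across 0 for Mitf (-0.24 to 0.57), Pax6 (-0.65 to 0.0454), Lhx2 (-0.0922 to 0.20) and Tfec (-0.0194 to 0.0219), Mitf (-0.11 to 0.43), Pax6 (-0.33 to 0.31) and Six6 (-0.0136 to 0.00915), and Mitf (-0.45 to 0.41), Otx2 (-0.000353 to 0.16), Pax6 (-0.54 to 0.11) and Sox9 (-0.17 to 0.13) in the same order of comparisons. Pax6 had 17 to 355 counts per library, and its edgeR interval was the widest of the 5 in each comparison.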
